A study of Mus musculus with 6 samples.

Results

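A set of 9 genes that control entry into meiosis was followed in RNA-seq of STRA8+ germ cells from mouse testis. They were taken by gene name from a list with 4 activators of meiotic entry (Stra8, Meioc, Ythdc2 and Taf4b) and 5 subunits of the repressor complex PRC1.6 (Max, Mga, L3mbtl2, E2f6 and Pcgf6), and all 9 were found among the 54532 genes of the table. The 6 libraries fall into 3 controls, whose genotype label is Cre, and 3 conditional knockouts (cKO) of Srsf1, a splicing factor. The labels name neither the Cre driver nor the age of the mice, and they do not say that the libraries came from separate animals, so p-values measure the spread among these samples, which may be technical. Levels are in FPKM, fragments counted on a gene divided by its length in kilobases and by a size factor of the library, and a gene is called higher or lower in cKO where its adjusted p in limma is at most 0.05.

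Germ cells enter meiosis when retinoic acid switches on STRA8, which acts with its partner MEIOSIN as a transcription factor on meiotic genes, while MEIOC and the RNA helicase YTHDC2 lower the level of mitotic transcripts so that meiotic prophase can proceed. TAF4B is a gonad-enriched subunit of the general transcription factor TFIID. PRC1.6 is a variant Polycomb complex that keeps germline and meiotic genes silent in other cells and before meiosis, and it reaches DNA through MGA with MAX at E-boxes and through E2F6 at E2F sites.

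Srsf1 was read first, since it checks the labels. Its level was 84.7, 45.2 and 51.9 FPKM in controls 1, 2 and 3, and 5.08, 4.94 and 5.17 FPKM in cKO 1, 2 and 3. Every cKO library lay far under every control library, and the cKO mean was 8.36% of the control mean (log2 fold change -3.29, SE 0.22; limma with Benjamini-Hochberg adjustment, adjusted p = 5.65e-05). The fragments counted on genes came to 16962222, 15364511 and 17310353 in controls 1, 2 and 3, and to 15326722, 14751933 and 14447887 in cKO 1, 2 and 3. Over Srsf1 and the 9 genes, the count in a library was at least 413 fragments, so no value of these genes rests on a handful of fragments.

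The labelled cell type was checked against marker genes. The 10 markers of spermatids, cells long past the stage at which STRA8 is made, summed to 2594, 8535 and 2550 FPKM in controls 1, 2 and 3, against 7.79, 9.23 and 8.62 FPKM in cKO 1, 2 and 3, and all 10 were lower in cKO. Over the 6 libraries together their most abundant gene was Tnp2, a transition protein of sperm chromatin. Prm1 was higher in control 1 (720 FPKM) and in each cKO library. Tnp2 was at 708, 2648 and 775 FPKM in the controls and under 1 FPKM in each cKO library. Control 2 therefore stood apart from controls 1 and 3, and the control libraries held RNA of spermatid marker genes, which the STRA8+ label does not cover. The 10 markers of pachytene spermatocytes summed to 874, 905 and 757 FPKM in the controls and to 148, 127 and 131 FPKM in the cKO libraries. Of these, 9 were lower in cKO. Ldhc led in the controls, at 387, 429 and 339 FPKM, and was at 0.685, 1.17 and 1.37 FPKM in cKO. Hspa2, also called lower, led in cKO at 91.7, 67.1 and 72.8 FPKM. Mybl1, a regulator of pachytene transcription, was not called. It stood at 20.3, 14.9 and 22.0 FPKM in the controls and 17.6, 23.7 and 16.4 FPKM in cKO.

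Markers of earlier germ cells were level in sum, though single genes were not. The 6 markers of differentiating spermatogonia summed to 263, 287 and 249 FPKM in the controls and to 243, 238 and 264 FPKM in cKO. Over the 6 libraries together Sohlh1 was the most abundant. In the controls Dmrtb1, a transcription factor of late spermatogonia, was level with Sohlh1 (means 76.3 and 76.0 FPKM). Dmrtb1 was the 1 called lower, at 38.6% of its control mean. The means of the other 5 were higher in cKO. The 10 markers of undifferentiated spermatogonia summed to between 55.8 and 68.7 FPKM in the 6 libraries, led by Lin28a, and among the 8 that could be tested Ret was higher (1.89 times its control mean) and Id4 lower (29.5% of it). Of the somatic markers, those of Sertoli cells were not low. The 8 Sertoli markers summed to 72.2, 57.8 and 86.6 FPKM in the controls and to 120, 48.7 and 66.2 FPKM in cKO, most of it Clu, with Rhox5 called higher. In sum, Leydig markers reached at most 14.4 FPKM, peritubular markers 9.50, macrophage and blood markers 34.5 and endothelial markers 2.09. Their most abundant genes over the 6 libraries together were Insl3, Tagln, C1qa and Cdh5. They did not all lead in each library. Insl3 was at 0 in control 3, C1qb was above C1qa in each control, and Acta2 was above Tagln in control 2 and cKO 3. No marker of any list was at 0 in all 6 libraries. In bulk RNA, fewer cells of a stage and less RNA per cell cannot be told apart, and the part of these stage differences in the values of the 9 genes was not tested.

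Stra8 headed the 9 genes in every library. It was at 262, 222 and 250 FPKM in the controls and at 242, 313 and 262 FPKM in cKO. The groups overlapped, with cKO 1 inside the control range and only cKO 2 well above it. The mean was 244 FPKM ± 20.3 (SD, n = 3) in control and 272 FPKM ± 36.4 (SD, n = 3) in cKO, a log2 fold change of 0.15 (SE 0.12, 95% interval -0.13 to 0.42; limma with Benjamini-Hochberg adjustment, adjusted p = 0.359). Its mean level lay at the 99.6th percentile of the genes tested. The cells were isolated as STRA8+, so a high level of this gene is not independent of how they were chosen.

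Meioc, which encodes the partner that YTHDC2 needs in germ cells, came next at 123, 93.8 and 111 FPKM in the controls and 125, 176 and 124 FPKM in cKO. All 3 cKO libraries were above all 3 controls, but cKO 1 and cKO 3 cleared control 1 by little and cKO 2 set most of the difference. The log2 fold change was 0.36 (SE 0.16, 95% interval -0.03 to 0.75) and missed the threshold of 0.05 (limma with Benjamini-Hochberg adjustment, adjusted p = 0.134). Without cKO 2 it was 0.19.

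Ythdc2 itself was at 24.7, 17.1 and 25.2 FPKM in the controls and 28.2, 32.0 and 25.9 FPKM in cKO. The groups did not overlap, with control 2 the lowest library and cKO 3 close to controls 1 and 3. Its log2 fold change was again 0.36 (SE 0.16, 95% interval -0.01 to 0.74; limma with Benjamini-Hochberg adjustment, adjusted p = 0.123), and without control 2 it was 0.19. Within a library, Meioc stood at 4.41 to 5.48 times the FPKM of Ythdc2 in the controls and at 4.42 to 5.49 times in cKO, ranges that coincide almost fully.

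Taf4b was the only activator with a lower mean in cKO. It was at 62.7, 45.0 and 54.8 FPKM in the controls and 45.0, 57.6 and 47.3 FPKM in cKO. The groups overlapped across most of their range, and the log2 fold change of -0.11 (SE 0.14, 95% interval -0.45 to 0.23) did not pass the test (limma with Benjamini-Hochberg adjustment, adjusted p = 0.592). Without control 1, the highest library, it was 0.0013.

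Among the repressors, Mga moved most. MGA is the large scaffold of PRC1.6, with a T-box and a basic helix-loop-helix domain that pairs with MAX. Its transcript was at 29.3, 26.1 and 29.9 FPKM in the controls and 47.1, 53.4 and 43.8 FPKM in cKO. The lowest cKO library stood well clear of the highest control, and the spread inside each group was small beside the gap. The mean went from 28.4 FPKM ± 2.04 (SD, n = 3) to 48.1 FPKM ± 4.91 (SD, n = 3), 1.69 times the control, with a log2 fold change of 0.74 (SE 0.10, 95% interval 0.51 to 0.96; limma with Benjamini-Hochberg adjustment, adjusted p = 0.00131). Without control 2, the library richest in spermatid RNA, the log2 fold change of Mga was 0.68.

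E2f6, which encodes an E2F protein without the activation domain of its relatives, was the least abundant of the 9 genes. It was at 7.60, 10.6 and 8.44 FPKM in the controls and 13.5, 12.4 and 13.3 FPKM in cKO. The cKO libraries lay close together and above control 2, the highest control. The cKO mean was 1.47 times the control mean and the log2 fold change was 0.52 (SE 0.12, 95% interval 0.22 to 0.81; limma with Benjamini-Hochberg adjustment, adjusted p = 0.0176). The call held without control 2 or cKO 2 (adjusted p from limma 0.00326 and 0.0394) but not without any of the other 4 libraries: the limma adjusted p was 0.0504 without control 1, 0.0599 without control 3, 0.0592 without cKO 1 and 0.0643 without cKO 3, and over all alternatives it ranged from 0.00326 to 0.0643. The log2 fold change stayed between 0.42 and 0.71.

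Pcgf6 went the other way. PCGF6 is the Polycomb ring finger protein that gives PRC1.6 its number and joins the RING1 enzymes to the complex. Its transcript was at 33.4, 26.3 and 30.3 FPKM in the controls and 20.3, 19.1 and 20.1 FPKM in cKO. No cKO library reached the lowest control, and the 3 cKO values were nearly the same. The cKO mean was 66.0% of the control mean (log2 fold change -0.57, SE 0.10, 95% interval -0.80 to -0.34; limma with Benjamini-Hochberg adjustment, adjusted p = 0.00446), and without control 2 the log2 fold change was -0.66.

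Max, the partner that MGA shares with the MYC and MXD proteins, was at 15.7, 15.6 and 17.2 FPKM in the controls and 19.8, 18.8 and 18.1 FPKM in cKO. The groups did not overlap, although cKO 3 and control 3 were close. The log2 fold change was 0.21 (SE 0.08, 95% interval 0.03 to 0.39; limma with Benjamini-Hochberg adjustment, adjusted p = 0.0695), short of the threshold. L3mbtl2, which encodes a chromatin reader with malignant brain tumor repeats, was at 23.0, 20.9 and 20.0 FPKM in the controls and 23.7, 18.0 and 21.3 FPKM in cKO. Here the cKO libraries held both the highest and the lowest value, and the log2 fold change was -0.02 (SE 0.11, 95% interval -0.29 to 0.24; limma with Benjamini-Hochberg adjustment, adjusted p = 0.890), with a sign that turned under other scalings.

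**Figure D1:**
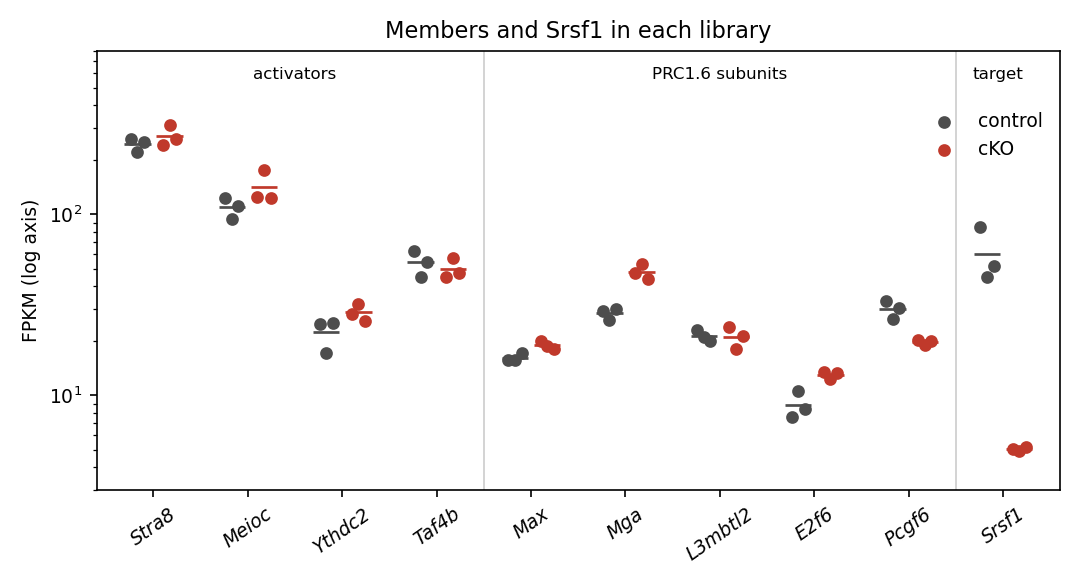
FPKM of the 9 genes and of Srsf1 in each library on a log axis, with controls in gray, cKO in red, a point for each library and a bar at the group mean. Mga and E2f6 lie higher in cKO and Pcgf6 lower, with no overlap between groups, while Stra8, at 222 to 313 FPKM, overlaps.

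Of the 9 genes, 2 were higher in cKO (Mga and E2f6) and 1 lower (Pcgf6), where 11.8% of the 15451 genes tested were higher and 22.2% lower. Both counts are within 1 gene of what these shares give for 9 genes, so the counts alone say nothing particular about the group. All 3 calls fell among the repressors and none among the 4 activators, and whether the groups of genes differ was not tested. The higher count was 4 after quantile normalization and 5 with limma-voom, where 4854 and 2482 of the 15451 genes were higher. Ythdc2 passed in both and Meioc with limma-voom. Without control 1, control 3, cKO 1 or cKO 3 the higher count was 1. FPKM of cKO lay wholly above control for 5 genes (Meioc, Ythdc2, Max, Mga and E2f6), against 21.8% of all genes tested, and wholly below for 1 (Pcgf6), against 28.6%. For groups of 3, the smallest p that exact permutation of the libraries allows for 1 gene is 0.1. The median log2 fold change was 0.25 over the activators and 0.21 over the repressors, beside -0.008 over all genes tested.

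How the libraries are scaled to each other bears on small changes. As deposited, 1821 genes were higher and 3437 lower in cKO, but with quantile normalization 4854 were higher and 2665 lower, and the median over all genes of the log2 fold change moved from -0.008 to 0.20. Relative to the median of all genes, Mga stood at 0.74 as deposited and 0.64 after quantile normalization, E2f6 at 0.52 in both, and Pcgf6 at -0.56 and -0.64. Stra8 went from 0.16 to -0.01 on the same relative scale, Meioc from 0.37 to 0.23, Ythdc2 from 0.37 to 0.28, Taf4b from -0.10 to -0.21, Max from 0.22 to 0.16 and L3mbtl2 from -0.01 to -0.09. Mga and E2f6 were the 2 highest of the 9 on this scale and Pcgf6 the lowest under both scalings. With 1 library left out, the count of genes higher in cKO was 1068, 1767 and 1079 without controls 1, 2 and 3, and 1172, 1260 and 969 without cKO 1, 2 and 3.

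A ratio inside a library does not change when the whole library is scaled by 1 factor, although quantile normalization can change it; these are from FPKM as given. The FPKM of Mga was 0.879, 0.994 and 0.985 times that of Pcgf6 in controls 1, 2 and 3, and 2.32, 2.80 and 2.18 times in cKO 1, 2 and 3. The transcripts were thus about level in every control, and Mga was well ahead in every cKO library. The ratio of Mga to Max was 1.87, 1.68 and 1.74 in the controls and 2.37, 2.85 and 2.42 in cKO, and that of E2f6 to Pcgf6 was 0.228, 0.404 and 0.278 in the controls and 0.664, 0.649 and 0.660 in cKO. Each of these 3 ratios was higher in every cKO library than in any control. Stra8 stood at 8.92, 8.51 and 8.35 times Mga in the controls and 5.14, 5.85 and 5.98 times in cKO, again without overlap.

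A balance of activators against repressors did not separate the groups. The mean log2(FPKM + 1) of the 4 activators minus that of the 5 repressors was 2.06, 1.70 and 1.97 in the controls and 1.75, 2.19 and 1.84 in cKO. Control 2 was the lowest library and cKO 2 the highest, and the other 4 lay between them. The group means were 1.91 ± 0.19 (SD, n = 3) and 1.93 ± 0.23 (SD, n = 3), and the value, made from genes chosen with results known, was not tested.

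**Figure D2:**
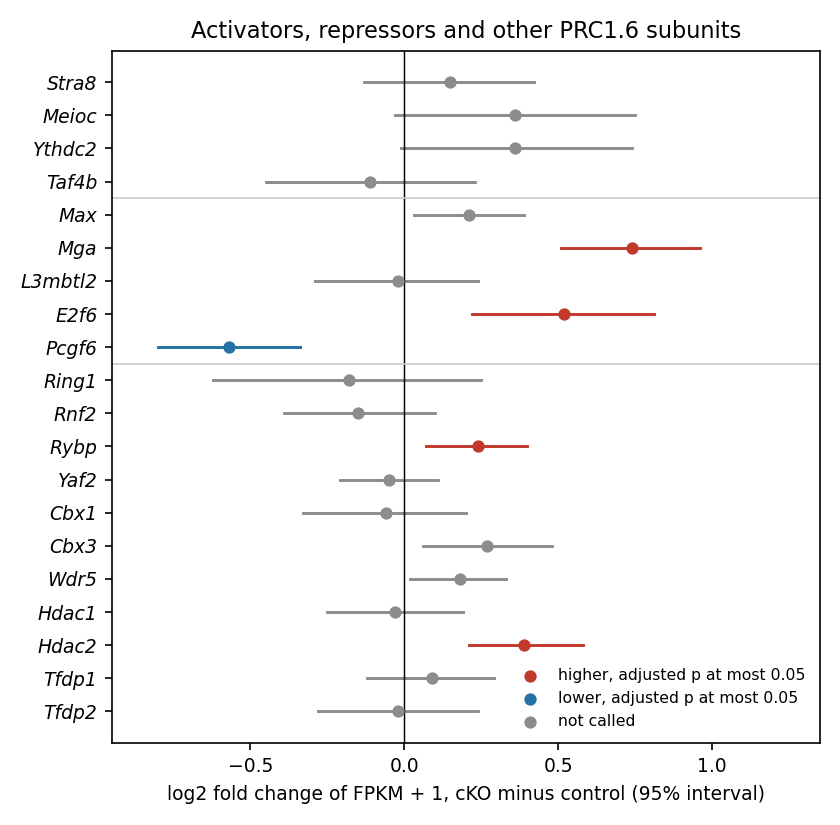
Log2 fold change of FPKM + 1, cKO minus control, with its 95% interval, for the 4 activators (top), the 5 repressors (middle) and the other 11 PRC1.6 subunits (bottom). Mga (0.74) lies farthest to the right and Pcgf6 (-0.57) farthest to the left.

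The rest of PRC1.6 differed less than Mga and Pcgf6. Of 11 other subunits and partners, 2 were higher, none was lower, and the median log2 fold change was -0.02, against 11.8% higher and 22.2% lower among all genes tested. Over all alternatives the higher count ran from 1 to 4, with 4 after quantile normalization and 1 with no filter, no intensity trend or the replicate block. Without any 1 library but control 2 it was 1. Without control 2 it was 2, with another subunit in place of Rybp, and 1 was lower. Hdac2, a histone deacetylase, was at 37.3, 41.4 and 36.2 FPKM in the controls and 50.9, 48.1 and 52.9 FPKM in cKO. No cKO library overlapped the controls (log2 fold change 0.39; limma with Benjamini-Hochberg adjustment, adjusted p = 0.00769). Rybp, which stimulates the RING1 ligases, was at 17.4, 16.9 and 18.7 FPKM against 21.6, 20.4 and 21.0 FPKM, likewise apart (0.24; limma with Benjamini-Hochberg adjustment, adjusted p = 0.0402), but its call was lost without any 1 library, with adjusted p from limma between 0.0591 and 0.121. The catalytic RING1 pair did not pass: Ring1 was at 5.16 to 9.24 FPKM over the 6 libraries and Rnf2 at 19.6 to 24.9 FPKM.

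Relatives of the members that build other complexes were compared as well. Among 15 other PCGF, E2F and L3MBTL genes, 12 were abundant enough to test, 1 was lower and none higher (3 higher after quantile normalization), with a median log2 fold change of -0.14; of all genes tested, 22.2% were lower and 11.8% higher. The 1 was E2f1, an activating E2F, at 33.0, 29.7 and 32.0 FPKM in the controls and 22.5, 25.8 and 25.3 FPKM in cKO. Its cKO libraries were all below the controls (-0.35; limma with Benjamini-Hochberg adjustment, adjusted p = 0.0156; 0.0554 without control 1 and 0.0560 without control 3). The other PCGF genes were not called, and Pcgf1, Pcgf2, Pcgf3, Bmi1 and Pcgf5 had log2 fold changes of -0.24, 0.24, -0.16, -0.18 and -0.11. All of these but Pcgf2 had every cKO library below every control, as Pcgf6 did and as 28.6% of all genes tested did. For 1 gene with its libraries shuffled at random, the groups fall apart in 10% of cases, both directions counted together. All genes share the same 6 libraries, so that figure is no measure of how many genes would do so. L3mbtl1, L3mbtl3 and L3mbtl4 were at 1.23 FPKM or less in every library and were not tested.

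MAX also pairs with MYC and MXD proteins. A list of 11 genes held these and others of the wider MAX network, such as Mlx, Mlxip and Mlxipl. Of them 10 could be tested, with 1 higher and 1 lower (all genes tested: 11.8% and 22.2%). The counts were 5 higher and none lower after quantile normalization, and 2 were higher with FPKM from the sum of fragments, with limma-voom, and without control 2 or cKO 2. Mycn, a MYC family gene, was at 5.90, 7.92 and 6.97 FPKM in the controls and 11.7, 10.6 and 10.1 FPKM in cKO. The groups were apart, with a log2 fold change of 0.58 (limma with Benjamini-Hochberg adjustment, adjusted p = 0.00971). Mnt, a repressor that competes with MYC for MAX, was at 10.2, 10.3 and 9.62 FPKM in the controls and 7.73, 5.40 and 6.38 FPKM in cKO. All 3 cKO libraries were lower (-0.57; limma with Benjamini-Hochberg adjustment, adjusted p = 0.0133), a call lost after quantile normalization (-0.33; adjusted p from limma 0.0599, against 0.00779 to 0.0599 over all alternatives). Myc itself was at or under 0.539 FPKM in every library.

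TFIID, the complex that holds TAF4B, had 16 other subunits tested, of which 5 were higher and 1 lower (11.8% and 22.2% of all genes tested), with a median of -0.00. Taf7l, a germ-cell form of TAF7 encoded on the X chromosome, was the most abundant at 316, 260 and 301 FPKM in the controls and 390, 450 and 388 FPKM in cKO. Its groups did not overlap (log2 fold change 0.49, adjusted p = 0.0120 from limma with Benjamini-Hochberg adjustment). With a block for the replicate number, the adjusted p of Taf7l from limma was 0.0518. Taf7 was at 29.5, 31.5 and 33.5 FPKM against 45.7, 45.6 and 44.0 FPKM (0.51; limma with Benjamini-Hochberg adjustment, adjusted p = 0.00174). Taf4, the broadly expressed counterpart of Taf4b, was at 14.0, 11.7 and 13.2 FPKM in the controls and 14.4, 15.1 and 14.7 FPKM in cKO, above every control but not past the test (0.17; limma with Benjamini-Hochberg adjustment, adjusted p = 0.161). Taf5 (0.48), Taf1 (0.35) and Taf9b (0.28) were also called higher and Taf2 (-0.24) lower. Taf5 overlaps Usmg5, a gene of up to 332 FPKM on the other strand, but has 100% of its 100-base windows in no other gene. The call of Taf1 was lost with any 1 library left out (adjusted p from limma 0.0503 to 0.0708), and those of Taf9b and Taf2 with any but 1 (adjusted p from limma up to 0.114 and 0.138). The count of higher subunits was then 3 or 4. It was 2 with the replicate block, and 7 with none lower after quantile normalization.

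Of 6 genes listed as partners or regulators around STRA8, MEIOC and YTHDC2, Dmrt1 among them, 3 were higher (1 without cKO 3) and none lower. Of all genes tested, 11.8% were higher and 22.2% lower. The median log2 fold change of the 6 was 0.40. Xrn1, the 5′ to 3′ exoribonuclease that binds YTHDC2, was at 5.43, 5.67 and 5.84 FPKM in the controls and 7.95, 9.54 and 7.82 FPKM in cKO, with no overlap (0.50; limma with Benjamini-Hochberg adjustment, adjusted p = 0.00938). Dazl, an RNA-binding protein that licenses germ cells for meiosis, was at 407, 363 and 407 FPKM in the controls and 485, 584 and 517 FPKM in cKO. Its cKO libraries were all above the controls (0.43; limma with Benjamini-Hochberg adjustment, adjusted p = 0.0159; 0.0516 without cKO 3). Rb1, the retinoblastoma gene, whose product binds STRA8, was the third (0.37; limma with Benjamini-Hochberg adjustment, adjusted p = 0.0334), and its call was lost without any 1 library but control 1, up to an adjusted p of 0.0980 from limma.

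Meiosin, listed in the table as Gm4969, was at 200, 121 and 224 FPKM in the controls and 273, 292 and 225 FPKM in cKO. The groups touched without overlapping, since cKO 3 was barely above control 3, and control 2 was far below the rest. The log2 fold change was 0.57 (SE 0.23; limma with Benjamini-Hochberg adjustment, adjusted p = 0.10). The ratio of Stra8 to its partner was 1.31, 1.84 and 1.12 in the controls and 0.887, 1.07 and 1.16 in cKO, so the controls were mostly higher and control 3 fell among the cKO libraries.

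None of the 15 early meiotic genes downstream of STRA8 was higher and 4 were lower, where 11.8% of all genes tested were higher and 22.2% lower. Their median log2 fold change was -0.27. The lower count was 2 without control 1, control 3, cKO 1 or cKO 3 and 6 without control 2 or cKO 2, and no alternative called any of the 15 higher. Spo11, the enzyme that makes the DNA breaks of meiotic recombination, was at 22.4, 15.9 and 17.9 FPKM in the controls and 10.5, 9.27 and 6.85 FPKM in cKO. All cKO libraries were lower (-1.01, SE 0.18; limma with Benjamini-Hochberg adjustment, adjusted p = 0.00496). Rec8, the meiotic cohesin subunit, was at 22.8, 21.3 and 18.0 FPKM against 12.7, 13.0 and 15.2 FPKM (-0.56; limma with Benjamini-Hochberg adjustment, adjusted p = 0.00892). Mei1 (-0.43) and Syce2 (-0.34) were the other 2 called lower, with adjusted p from limma of up to 0.0646 and 0.127 with 1 library left out. Sycp3, a core protein of the synaptonemal complex and the most abundant of the list, was at 249, 192 and 225 FPKM in the controls and 198, 267 and 191 FPKM in cKO, where the groups overlapped widely; it shares sequence with Chpt1, which runs over it on the other strand, and has 66.0% of its 100-base windows to itself. These genes are also made in later spermatocytes, whose markers were lower in cKO, and the part of that difference was not tested.

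Germline genes known as PRC1.6 targets in other cells were mixed. Of 14, 2 were higher (Taf7l and Dazl) and 4 lower (Mael, Ddx4, Tuba3a and Tuba3b), with a median of -0.05. Among all genes tested, 11.8% were higher and 22.2% lower, so these counts do not set the list apart. Without cKO 3 the counts were 1 higher and 2 lower, and without control 1 or control 3 the lower count was 2. Quantile normalization gave 4 higher and 2 lower. Mael, a piRNA pathway protein, was at 291, 301 and 263 FPKM in the controls and 220, 210 and 202 FPKM in cKO. All cKO libraries were below all controls (-0.43; limma with Benjamini-Hochberg adjustment, adjusted p = 0.00607). Ddx4, the germ cell helicase VASA, fell by 0.24 on the log2 scale, a call lost without any 1 library but cKO 2 (adjusted p from limma up to 0.157), and that of Tuba3a was lost without any 1 but cKO 1 (up to 0.113). Tuba3a and Tuba3b share sequence with each other, with 87.7% and 88.2% of their 100-base windows in no other gene, so their values are in part uncertain.

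**Figure D3:**
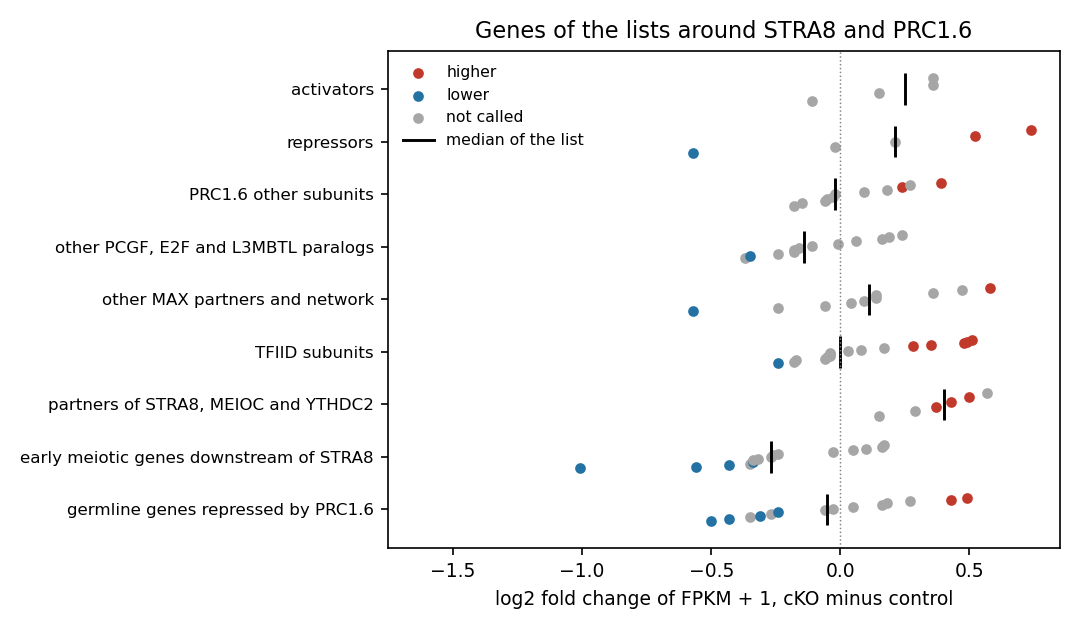
Log2 fold change of FPKM + 1, cKO minus control, of each gene tested in the lists of activators, repressors and their partners, with red for higher, blue for lower, gray for genes not called and a black bar at the median of each list. The median is 0.40 for the list named partners of STRA8, MEIOC and YTHDC2, which also holds regulators, and -0.27 for the early meiotic genes.

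In the annotation of GRCm38, Stra8 (ENSMUSG00000029848) lies at chr6:34920163-34939344 on the plus strand and Meioc (ENSMUSG00000051455) at chr11:102663716-102682237, also plus. Ythdc2 (ENSMUSG00000034653) and Taf4b (ENSMUSG00000054321) are both on chromosome 18. Of the repressors, Mga (ENSMUSG00000033943) lies at chr2:119897228-119969581 on the plus strand, L3mbtl2 (ENSMUSG00000022394) at chr15:81663889-81688315 on the plus strand, and Pcgf6 (ENSMUSG00000025050) at chr19:47033619-47050845 on the minus strand. Max (ENSMUSG00000059436) and E2f6 (ENSMUSG00000057469) share chromosome 12, at chr12:76937269-76962201 on the minus strand and chr12:16810963-16839742 on the plus strand. GENCODE M21 holds 15 transcripts of Mga, 5 of them protein-coding, 7 of E2f6 with 1 protein-coding and 3 targets of nonsense-mediated decay, and 4 of Pcgf6 with 1 protein-coding. Gene-level FPKM does not tell these transcripts apart. Each member had 100% of its 100-base windows in no other gene except L3mbtl2, at 90.0%, which overlaps Chadl on the other strand.

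The genes most like Stra8 and Mga across the 6 libraries were found among 8207 protein-coding genes averaging 5 FPKM or more, by Pearson's r of log2(FPKM + 1). For Stra8 they were Dld (r = 0.993), Canx (0.993) and Zmym2 (0.991), none of them called different between the groups. For Mga they were Sf3b1 (r = 1.000), Slc30a9 (0.999) and Peak1 (0.998), all called higher in cKO. Sf3b1, a core splicing factor, was at 35.3, 33.6 and 35.5 FPKM in the controls and 43.3, 45.6 and 42.0 FPKM in cKO, the same ranking of libraries inside each group as Mga. With 6 libraries in 2 groups, such values describe these samples only.

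PRC1.6 and STRA8 read DNA letters that can be looked for near the start of a gene. Promoter windows of 300 bases (250 before and 50 after the start) from RefSeq for GRCm38.p6 were matched for 7 of the 9 genes, the missing entries being Ythdc2 and Taf4b. Searched on both strands were the E-box CACGTG, which equals its reverse complement, the E2F-type site GCGGGA, and the STRA8-type site CNCCTCAG; none is part of another. Of 32851 windows in all, 7.15% held the E-box, 20.0% the E2F-type site and 7.94% the STRA8-type site. Among the members, the E-box was in the window of Max and the E2F-type site in those of E2f6 and Meioc, and no member held the STRA8-type site. Of the 5 repressor windows, 1 held the E-box and 1 the E2F-type site (20% each). Of the 2 activator windows, 1 held the E2F-type site. With so few windows, these counts do not set the members apart from all windows. The stretches around these matches are shown as examples. They are chr12:76962229-76962328 on the minus strand, chr12:16810865-16810964 on the plus strand and chr11:102665335-102665434 on the plus strand, each 100 bases in 5′ to 3′ direction, with the E-box or E2F-type match in capitals. The match starts 3 bases before the RefSeq start in Max, 53 before it in E2f6 and 228 before it in Meioc, whose RefSeq start lies inside the gene as placed above.
Max: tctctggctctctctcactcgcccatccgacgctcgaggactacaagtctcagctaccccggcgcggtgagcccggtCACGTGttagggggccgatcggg
E2f6: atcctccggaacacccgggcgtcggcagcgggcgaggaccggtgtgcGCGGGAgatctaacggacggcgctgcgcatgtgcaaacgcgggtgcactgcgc
Meioc: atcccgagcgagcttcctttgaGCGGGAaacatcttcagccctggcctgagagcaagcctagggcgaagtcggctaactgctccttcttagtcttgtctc

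The same letters were counted in the lists, as a description with no test. Of 16 windows of the 14 germline genes, 8 held the E-box (50%), 8 the E2F-type site (50%) and 5 both (31.2%), against 1.99% of all windows with both. Of 17 windows of the early meiotic genes, 7 held the E-box, 11 the E2F-type site and 4 the STRA8-type site. Both PRC1.6 sites were in 41.2% of these 17. The lists of other PRC1.6 subunits, paralogs, the MAX network and TFIID were not drawn up as targets. Taf7l, in the TFIID list with an E-box, is however also among the 14 germline genes. Over these lists the E-box was in 9.09% to 30.8% of windows, the E2F-type site in 22.2% to 54.5% and both in 5.56% to 17.6%. Of the 4 windows of the list around STRA8, MEIOC and YTHDC2, 2 held both. Both PRC1.6 motifs occurred in Mael, which was lower in cKO, and in Sycp3, whose groups overlapped. All 3 motifs occurred in Meiosin, the partner of STRA8. Their 250 bases before the RefSeq start are shown as examples of a window with both PRC1.6 motifs and of a window with all 3, at chr1:166238745-166238994 (minus strand), chr10:88459337-88459586 (plus strand) and chr7:19118345-19118594 (minus strand), in 5′ to 3′ direction, with matches in capitals. In Sycp3 the E-box is found at 64 and 43 bases before the start, and in Meiosin the STRA8-type match starts 44 bases before it. A match says only that the letters are there.
Mael: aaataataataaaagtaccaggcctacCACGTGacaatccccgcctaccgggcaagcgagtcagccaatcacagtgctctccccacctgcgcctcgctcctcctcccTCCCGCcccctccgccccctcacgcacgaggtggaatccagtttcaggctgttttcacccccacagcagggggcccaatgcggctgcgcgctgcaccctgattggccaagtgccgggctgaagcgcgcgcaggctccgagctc
Sycp3: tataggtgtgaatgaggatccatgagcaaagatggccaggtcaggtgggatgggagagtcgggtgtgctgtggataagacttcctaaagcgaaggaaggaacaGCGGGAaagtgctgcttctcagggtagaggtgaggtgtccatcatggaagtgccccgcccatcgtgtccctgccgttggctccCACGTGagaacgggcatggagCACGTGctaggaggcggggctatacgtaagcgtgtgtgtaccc
Meiosin: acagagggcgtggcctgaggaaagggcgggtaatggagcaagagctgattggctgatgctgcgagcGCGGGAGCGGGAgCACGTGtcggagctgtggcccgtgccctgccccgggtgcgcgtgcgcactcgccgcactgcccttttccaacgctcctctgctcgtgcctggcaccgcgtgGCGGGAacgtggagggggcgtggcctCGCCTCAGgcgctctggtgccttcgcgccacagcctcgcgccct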

How the data were processed

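Total RNA of STRA8+ germ cells was sequenced in 6 libraries, grouped by the genotype and number in their labels. The authors deposited 1 table of FPKM per gene, with gene lengths. The submitters' processing notes name HISAT2 2.0.5 and mm10, and the counting tool is not given in the sources used here. FPKM times gene length fell on whole steps for 100% of values (tolerance 0.1 of a step), which gave fragments per gene. The deposited FPKM used a library total of 0.971 to 1.05 times the sum of these fragments.

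The 15451 genes averaging 1 FPKM or more were tested on log2(FPKM + 1) in R 4.3.3 by limma 3.58.1 (lmFit, eBayes with an intensity trend, all 6 libraries, no covariate), with Benjamini-Hochberg adjustment over these genes and a threshold of 0.05. Higher and lower mean past this threshold. Fold changes on this scale understate changes of low genes. Fits were tested on simulated data. Alternatives were another pseudocount, filters, scalings, limma-voom, no trend, a replicate block, a threshold of 0.01 and leaving out each library; those for the lists and their genes were added after seeing the data. Genes of a list were named if past the threshold (up to 6 in each direction), then by abundance, with 3 genes most like Stra8 and Mga; other genes named, such as Pcgf1, Taf4 and Ring1, were chosen after their values were seen. Motifs were counted with Python 3.11 in RefSeq promoters. The members and lists were chosen with earlier results of these data known.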

Additional observations from a re-analysis of the deposited data

How the results depend on the processing

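Under 16 alternatives for each of the 9 genes and Srsf1, 142 of 160 log2 fold changes kept their direction and side of the threshold. Srsf1, Mga and Pcgf6 kept their calls in all 16, and Stra8 was called in none. Max passed after quantile normalization (0.36), with FPKM from the sum of fragments (0.26) and with limma-voom (0.27), Ythdc2 after quantile normalization (0.48) and with limma-voom (0.42), and Meioc with limma-voom (0.41). E2f6, at 0.52, did not pass an adjusted p of 0.01. L3mbtl2 turned to 0.107 with quantile normalization, 0.0232 with FPKM from the sum of fragments and 0.0225 with limma-voom. With 1 library left out, log2 fold changes ran from -0.110 to 0.0786 for L3mbtl2 (0.0307 without control 1, 0.0786 without cKO 2), from -0.23 to 0.0013 for Taf4b (0.0013 without control 1) and from 0.42 to 0.64 for E2f6. The cause was not tested.

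Members called higher numbered 4 with quantile normalization, 5 with limma-voom, 1 at an adjusted p of 0.01 and 1 to 2 with 1 library left out. Genes called higher numbered 4854 with quantile normalization, 605 at an adjusted p of 0.01 and 969 to 1767 with 1 library left out. Genes called lower numbered 1950 among the 8929 with a mean of at least 5 FPKM, where fewer genes were tested. Of 352 values for 22 other list genes, 256 kept their call, 96 lost it and 0 changed sign, and 66 of 224 list counts moved by over 1.5 times.

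Libraries with the same number did not deviate together (r = -0.00, -0.11 and 0.02 over 15451 genes), and those with different numbers gave -0.15 to 0.13. With 3 libraries a group such values cannot tell whether the numbers pair libraries, and the labels do not say. With the replicate block, 891 genes and 1 member were called higher, and E2f6, at 0.52, and Taf7l, at 0.49, missed the threshold (adjusted p from limma 0.0533 and 0.0518). So did E2f1, Rybp, Taf1, Taf2, Taf9b, Rb1, Dazl, Syce2, Mei1, Ddx4 and Tuba3a. None of the 14 germline targets and 2 of the 16 TFIID subunits were then called higher.

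With 3 libraries a group, differences as small as that of Stra8 could not be separated from the spread, and counting error is small at these depths.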
